A study of Mus musculus with 12 samples.

Results

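The genes described here are 10 receptors that set how strongly a T cell responds to its antigen: Cd69, Ctla4, Tnfrsf9, Tnfrsf4, Tnfrsf18, Icos, Cd28, Cd27, Pdcd1 and Cd5. They were chosen by symbol from the 23174 genes measured in mouse T-ALL, an acute leukaemia that arises from developing T cells, with the expression values of both comparisons already known. Counts, fold changes and p-values of the 10 genes therefore describe them and support nothing by themselves. Every sample came from C57BL/6 leukaemia carrying Notch1-deltaE+, an activated form of the Notch1 receptor, so the controls carry it too. In the ex vivo experiment, 3 vehicle samples were compared with 3 samples given AMD3100, which occupies CXCR4 and stops it from binding its chemokine CXCL12. In the other experiment, 3 primary tumours that were Cxcr4+/+ were compared with 3 that were Cxcr4-/-. The labels describe spleen cells kept on mitomycin-treated OP9 stromal cells with 5 ng/ml of IL-7 for all samples, the tumours included. Whether the tumours were in fact cultured before RNA was taken is not settled by the labels. Neither the AMD3100 dose and exposure time nor the cells in which Cxcr4 was deleted could be taken from the labels. The labels do not say that samples came from separate animals or cultures, so a p-value here reflects how these particular samples spread, and that spread may be technical.

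A T cell receptor signal is weighed against signals from other surface receptors. CD28 and ICOS add to it through phosphatidylinositol 3-kinase, whereas CTLA-4, which binds the same ligands as CD28, and PD-1 restrain it. The TNF receptor family members CD137 (Tnfrsf9), OX40 (Tnfrsf4), GITR (Tnfrsf18) and CD27 recruit TRAF adapters and feed NF-kB. CD69 appears early after activation and draws the sphingosine-1-phosphate receptor S1P1 off the surface, which keeps cells in tissue, and CD5 is a scavenger-receptor-like protein that dampens T cell receptor signalling.

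Expression is given as FPKM, a level per transcript length and per library size. Changes are differences of log2(FPKM + 1), which understate the change of genes with low values. A gene was tested where its mean over the 6 samples of a table reached 1 FPKM, and all 10 receptors passed in both tables. The depth in reads is unknown. From steps between low values, the ex vivo libraries had 0.757 to 1.25 times the depth of the first vehicle library, with the 3 AMD3100 libraries at 1.06, 1.25 and 1.21. The T-lineage genes Cd3e and Thy1 were abundant in every library. Cxcr4 itself stood at 241, 155 and 206 FPKM in the Cxcr4+/+ tumours and at 23.2, 78.9 and 21.9 FPKM in the Cxcr4-/- tumours, and the genotypes did not overlap. The samples numbered 3 stood apart ex vivo in both groups: Cd8a was 233 and 163 FPKM there and 4.85 to 21.0 FPKM elsewhere, Cd4 was 26.0 and 16.1 FPKM against 0.433 to 2.81 FPKM, and Pdgfrb, 1 of the listed stromal markers, was 4.20 and 11.2 FPKM against 136 to 186 FPKM. The summed stromal markers did not follow Pdgfrb. Their sum was 126 FPKM in vehicle sample 3 and 529 FPKM in AMD3100 sample 3, the lowest and the highest of the 6 libraries.

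The promoters printed here belong to Tnfrsf9, Ctla4 and Tnfrsf18, the receptors that passed the paired test ex vivo and have an entry among the RefSeq promoters used (mouse build GRCm38.p6, bases -250 to 50 around the start site). Of the 10 receptors, 7 were matched to 8 promoters, and Cd69, Icos and Cd28 were not matched. Capitals mark letters shared with motifs of factors downstream of T cell activation: AP-1 (TGANTCA), NF-kB (GGG, any 2 bases, then TTTCC), NFAT (GGAAAA) and Egr (GCGNGGGCG), searched on both strands and chosen after the receptors' values were seen. Tnfrsf9 has 2 entries, at chr4:150919905-150920204 and chr4:150927749-150928048, Ctla4 lies at chr1:60908775-60909074 and Tnfrsf18 at chr4:156026072-156026371, all on the plus strand.
Tnfrsf9 first start: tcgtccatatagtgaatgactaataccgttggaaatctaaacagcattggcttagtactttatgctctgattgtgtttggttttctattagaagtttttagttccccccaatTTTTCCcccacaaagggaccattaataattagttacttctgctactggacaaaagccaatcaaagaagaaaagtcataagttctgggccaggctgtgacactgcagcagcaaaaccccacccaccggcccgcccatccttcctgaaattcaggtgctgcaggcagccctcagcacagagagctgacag
Tnfrsf9 second start: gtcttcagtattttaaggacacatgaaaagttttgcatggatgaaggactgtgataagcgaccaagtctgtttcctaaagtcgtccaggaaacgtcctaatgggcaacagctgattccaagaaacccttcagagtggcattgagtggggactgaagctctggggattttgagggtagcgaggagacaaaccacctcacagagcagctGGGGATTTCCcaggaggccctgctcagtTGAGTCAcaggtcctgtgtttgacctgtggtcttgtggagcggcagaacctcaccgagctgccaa
Ctla4: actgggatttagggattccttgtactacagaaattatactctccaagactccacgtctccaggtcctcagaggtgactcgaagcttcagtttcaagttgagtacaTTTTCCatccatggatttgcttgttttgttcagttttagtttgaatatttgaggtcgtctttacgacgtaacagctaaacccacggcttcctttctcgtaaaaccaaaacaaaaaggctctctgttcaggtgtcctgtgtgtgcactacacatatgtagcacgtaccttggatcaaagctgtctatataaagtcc
Tnfrsf18: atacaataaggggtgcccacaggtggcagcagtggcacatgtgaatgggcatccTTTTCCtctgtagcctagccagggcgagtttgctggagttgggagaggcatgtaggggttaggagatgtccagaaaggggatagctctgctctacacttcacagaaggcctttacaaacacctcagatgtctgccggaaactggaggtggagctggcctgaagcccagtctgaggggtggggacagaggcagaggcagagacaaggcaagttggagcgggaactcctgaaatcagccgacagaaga

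The second Tnfrsf9 promoter held GGGGATTTCC from -43 to -34 and TGAGTCA from -15 to -9, counted from the start site. The other 3 printed promoters held the NFAT letters, read on the minus strand as TTTTCC, at -138 to -133 in Tnfrsf9, -145 to -140 in Ctla4 and -196 to -191 in Tnfrsf18. Among 32851 promoters of the same length, 7.81% held the AP-1 letters, 1.63% those of NF-kB, 23.4% those of NFAT and 5.55% those of Egr. Of the 8 receptor promoters, 1, 1, 4 and 0 held them. The NF-kB and NFAT patterns can share letters and did not do so in the printed promoters. These matches describe letters in a window and carry no measurement of binding.

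Ex vivo, the receptors with the largest mean log2 changes were Cd69, Tnfrsf9 and Ctla4. With the replicate number as a block, 5 of the 10 receptors rose in AMD3100 (Cd69, Tnfrsf9, Ctla4, Tnfrsf18 and Cd28) and none fell. Across all 10245 genes tested, 9.96% were called higher in that paired fit and 9.92% lower (limma, Benjamini-Hochberg adjusted p under 0.05), and since the receptors were chosen with these values known, nothing is read from the 5. Without the block none of the 10 was called, against 0.127% of all genes, and Cd69 and Cd27 had an unadjusted p under 0.05, as had 2204 genes in all. The median change of the 10 receptors was 0.72, beside 0.00225 for all genes tested, and 9 of the 10 estimates were above 0, beside 50.3% of all genes. In bulk RNA, a difference in the number of cells expressing a receptor and a difference in RNA per cell cannot be told apart.

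**Figure D1:**
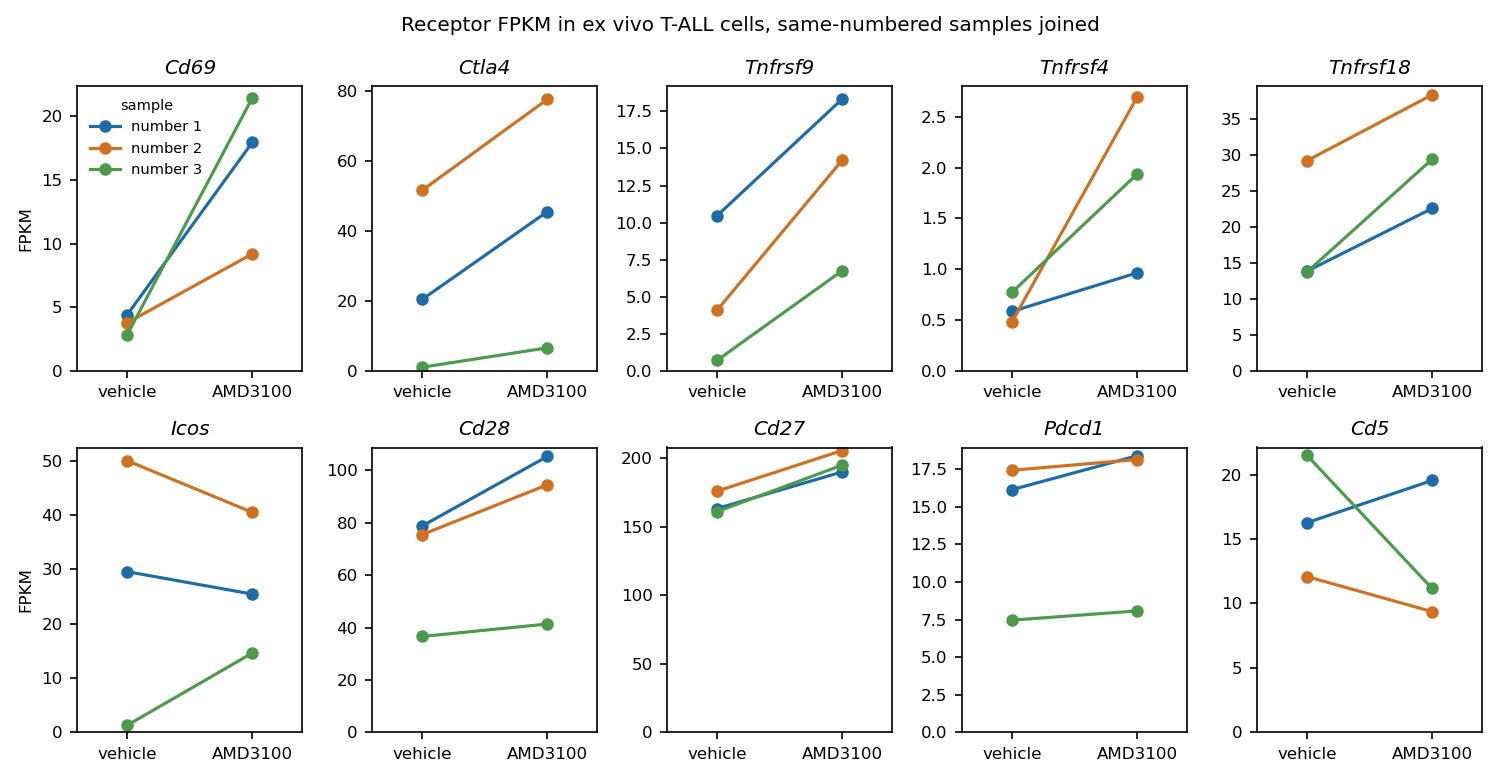
FPKM of each receptor (vertical axes, from 0) in the 3 vehicle and 3 AMD3100 samples, with lines joining samples of the same number. Cd69 goes from 2.86 to 4.42 FPKM in vehicle up to 9.20 to 21.5 FPKM in AMD3100, and the samples numbered 3 start from the lowest Ctla4, Icos, Cd28 and Pdcd1 values.

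Among the CD28 family, Cd28 was the most abundant, and the vehicle samples held 78.8, 75.5 and 36.6 FPKM of it while the AMD3100 samples held 105, 94.5 and 41.4. The samples numbered 3 were lowest in both groups and the groups overlapped, but each AMD3100 sample stood above its own partner. The mean was 63.6 ± 23.5 FPKM (SD, n = 3) in vehicle and 80.4 ± 34.2 FPKM (SD, n = 3) in AMD3100, a log2 change of 0.30, with limma adjusted p = 0.784 unpaired and 0.0489 paired (SE 0.45 and 0.07).

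Ctla4, the inhibitory counterpart of Cd28, varied most between samples of a group: 20.5, 51.7 and 1.06 FPKM in vehicle and 45.5, 77.7 and 6.60 FPKM in AMD3100. The ratio of AMD3100 to vehicle was 2.23, 1.50 and 6.20 in the 3 pairs, so every pair went up although the groups overlapped widely. The log2 change was 1.19, with limma adjusted p = 0.709 unpaired (SE 1.42) and 0.0344 paired (SE 0.25). Without vehicle sample 3 the unpaired difference turned to -0.15.

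Icos, which supports helper T cell function, followed the same spread in vehicle at 29.6, 50.0 and 1.33 FPKM, with 25.4, 40.5 and 14.6 FPKM in AMD3100. Pairs 1 and 2 were lower with AMD3100, and pair 3 was higher by a ratio of 11.0. The fitted log2 change of 0.75 had a limma adjusted p = 0.424 paired (SE 0.63) and 0.796 unpaired, and it turned to -0.25 in the paired fit without the samples numbered 3. The direction for Icos therefore rests on that pair.

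Pdcd1, which encodes PD-1, was nearly level within pairs. It stood at 16.1, 17.4 and 7.46 FPKM in vehicle and at 18.4, 18.1 and 8.07 FPKM in AMD3100. Its log2 change of 0.11 had a limma adjusted p = 0.358 paired (SE 0.08), with each pair slightly higher and the samples numbered 3 lowest in both groups.

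In the TNF receptor family, Tnfrsf9 stood at 10.5, 4.10 and 0.717 FPKM in vehicle and at 18.3, 14.2 and 6.75 FPKM in AMD3100. All 3 pairs went up, by ratios of 1.75, 3.46 and 9.42, but the lowest AMD3100 sample lay below the highest vehicle sample. The log2 change was 1.50, with limma adjusted p = 0.0284 paired (SE 0.28) and 0.307 unpaired (SE 0.73), and the unpaired change was 0.78 without vehicle sample 3. Its second promoter is the only 1 of the 8 receptor promoters that held the AP-1 or the NF-kB letters.

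Tnfrsf18, which is also abundant on regulatory T cells, held 13.9, 29.3 and 13.8 FPKM in vehicle and 22.6, 38.4 and 29.4 FPKM in AMD3100. Pair ratios were 1.63, 1.31 and 2.14, and here the samples numbered 2 were the highest of each group. Tnfrsf18 changed by 0.70 on the log2 scale, with limma adjusted p = 0.0316 paired (SE 0.14) and 0.304 unpaired. It overlaps the annotated gene Gm16008, so reads of the 2 genes may not have been told apart.

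Tnfrsf4, the neighbouring gene, was close to the floor of the filter at 0.585, 0.484 and 0.773 FPKM in vehicle and 0.965, 2.69 and 1.94 FPKM in AMD3100. Its groups did not overlap, yet its log2 change of 0.78 did not pass the test paired (limma adjusted p = 0.0828, SE 0.25) or unpaired (adjusted p = 0.241). The annotation places Tnfrsf4 over part of Sdf4, and whether the counting used strand is not given in the sources used here, so its low values are uncertain.

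Cd27, which is carried by resting and developing T cells, was the most abundant receptor and the steadiest, with 163, 176 and 161 FPKM in vehicle and 190.05, 206 and 195 FPKM in AMD3100. The groups did not overlap. Its log2 change was 0.24, with limma adjusted p = 0.0556 paired (SE 0.06) and 0.151 unpaired (SE 0.08). Cd27 also overlaps other annotated genes, E130112N10Rik and Mir8113, so its values are uncertain in the same way.

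Cd69 had the largest change of the 10. Vehicle samples held 4.42, 3.79 and 2.86 FPKM and AMD3100 samples 18.0, 9.20 and 21.5 FPKM, so the lowest treated sample was above the highest control. The mean rose from 3.69 ± 0.788 to 16.2 ± 6.32 FPKM (SD, n = 3 each), with pair ratios of 4.06, 2.43 and 7.51. For Cd69 this was a log2 change of 1.81, with limma adjusted p = 0.0222 paired (SE 0.28) and 0.0617 unpaired (SE 0.32).

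S1pr1, which encodes the receptor that CD69 protein draws off the surface, rose as well, from 2.27, 4.94 and 1.11 FPKM in vehicle to 6.77, 8.79 and 2.57 FPKM in AMD3100 (paired log2 change 0.91, limma adjusted p = 0.0258). Klf2, which drives S1pr1 transcription, was at 14.0, 17.4 and 0.114 FPKM in vehicle and 33.7, 41.5 and 0.928 FPKM in AMD3100 (paired log2 change 1.07, limma adjusted p = 0.0197). The samples numbered 3 held almost no Klf2 in either group.

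Cd5 was the 1 receptor with an estimate below 0. It stood at 16.3, 12.1 and 21.5 FPKM in vehicle and at 19.5, 9.37 and 11.2 FPKM in AMD3100, higher in pair 1 and lower in pairs 2 and 3. Cd5 differed by -0.32 on the log2 scale, with limma adjusted p = 0.327 paired (SE 0.22) and 0.634 unpaired.

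Altogether 8 of the 10 receptors were higher with AMD3100 in all 3 pairs, beside 30.8% of all genes, and 3 (Cd69, Tnfrsf4 and Cd27) had groups that did not overlap, beside 13.1% of all genes in that direction. Without the samples numbered 1 the paired test called 0 receptors and 9 of 10220 genes. Without those numbered 2 it called 0 receptors and 7 of 10137 genes. The changes in those fits were 1.82 and 2.17 for Cd69, 1.88 and 1.46 for Tnfrsf9, 1.23 and 1.50 for Ctla4 and 0.71 and 0.85 for Tnfrsf18. The fit without the samples numbered 3, which also left 2 pairs, called 1207 of 10245 genes. Without the samples numbered 3 the paired changes were 1.45 for Cd69, 1.16 for Tnfrsf9, 0.85 for Ctla4, 0.52 for Tnfrsf18 and 0.37 for Cd28, each still called (limma adjusted p from 0.0308 to 0.0463). In the vehicle samples the order of mean levels ran Cd27, Cd28, Icos, Ctla4, Tnfrsf18, Cd5, Pdcd1, Tnfrsf9, Cd69 and Tnfrsf4. Only the first step, from Cd27 to Cd28, and the last, from Cd69 to Tnfrsf4, separated neighbours beyond the range of their samples. With AMD3100 Cd69 stood sixth, between Icos and Pdcd1, and its values overlapped both.

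Other measures moved with these differences. Malat1, a long nuclear RNA, was 178 to 334 FPKM in vehicle and 527 to 920 FPKM in AMD3100, and across genes the log2 change rose with transcript length (Spearman 0.321, a description across genes, which are not independent). After correction for transcript length the paired change was 1.74 for Cd69, 1.61 for Tnfrsf9, 1.32 for Ctla4 and 0.89 for Tnfrsf18, all still called by limma, while Cd28 was lost (adjusted p = 0.0628) and Cd27 gained (0.0313).

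Markers of other cells gave mixed values ex vivo. Stromal markers, of interest because the cells were kept on OP9 stroma, summed to 450, 339 and 126 FPKM in vehicle and 519, 422 and 529 FPKM in AMD3100, higher in each pair. Of the 6 tested, 3 had estimates above 0 (Vim 0.96, Pdgfrb 0.51 and Cxcl12 0.31) and 3 below (Col1a1 -0.10, Col1a2 -0.30 and Sparc -0.27). None was called by limma paired or unpaired. Vim was the most abundant, at a mean of 189 FPKM in vehicle and 361 FPKM in AMD3100, and Dcn and Lum were at 0. Regulatory T cell markers summed to 246 to 465 FPKM in vehicle and 379 to 606 FPKM in AMD3100. Il2ra made up most of that sum, with means of 240 FPKM in vehicle and 380 FPKM in AMD3100. Of the 5 regulatory T cell markers tested, Ikzf2, Ikzf4 and Il2ra rose in the paired fit and Gpr83 fell, none of them called unpaired. Over all genes the paired fit called 9.96% higher and 9.92% lower. Foxp3 was not analysed here. Cytotoxic and NK markers summed to 1291 to 2903 FPKM in vehicle and 1544 to 3690 FPKM in AMD3100. The sum was lower with AMD3100 in pair 1 (2273 and 2062 FPKM) and higher in pairs 2 and 3. Gzma made up most of it, with means of 2112 and 2263 FPKM (paired log2 change 0.09, not called). Of 4 tested, Nkg7 and Gzmb were called higher in the paired fit and neither in the unpaired fit (limma adjusted p = 0.123 and 0.488). Ncr1, which marks NK cells, was at 0 in all 6 libraries. Neutrophil markers were listed at 0 in every ex vivo library, and macrophage markers summed to 4.01 to 11.7 FPKM in vehicle and 6.52 to 17.7 FPKM in AMD3100. The part of these cells in the receptor values was not tested.

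**Figure D2:**
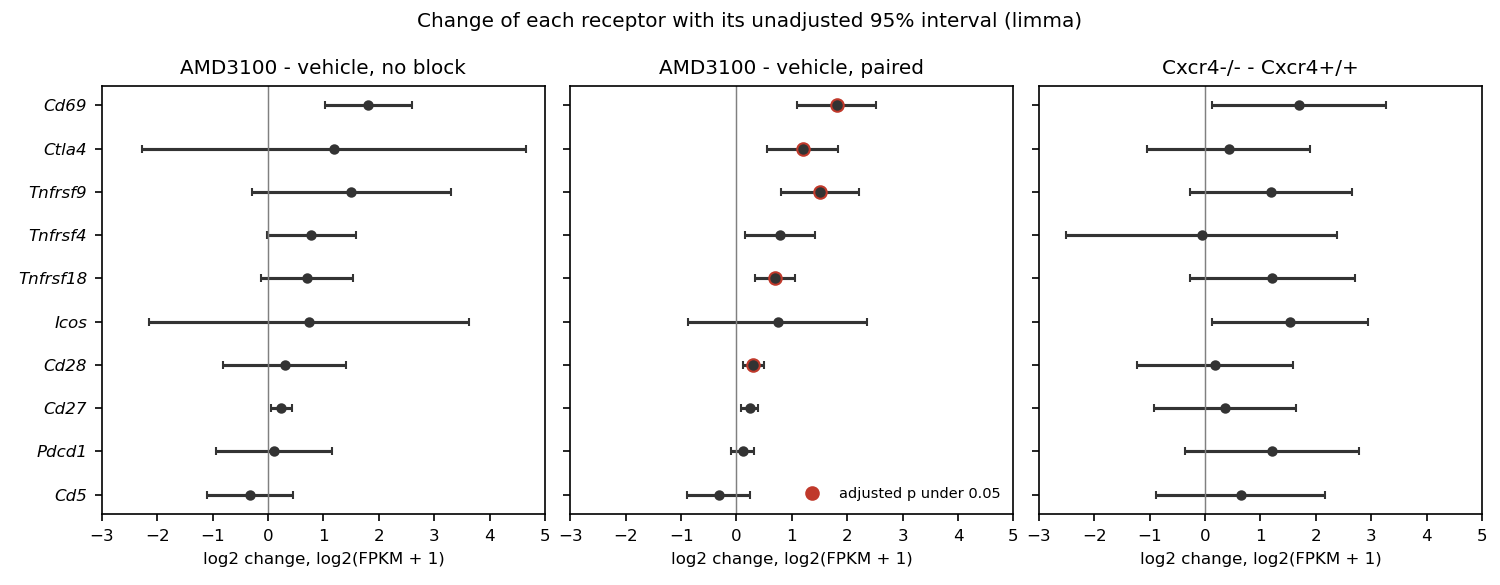
Log2 change of each receptor with its unadjusted 95% interval from limma, for AMD3100 minus vehicle without the block (left), the same with pairs as a block (middle) and Cxcr4-/- minus Cxcr4+/+ tumours (right). Red points mark an adjusted p under 0.05, which 5 receptors reach in the middle panel and none in the others.

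The pathway around the receptors was read from 109 other genes in 9 groups, of which 86 reached the filter ex vivo. None passed the unpaired test, and 20 of the 86 had an unadjusted p under 0.05, a share near that of all genes (2204 of 10245). The paired fit called 26 higher and 4 lower, beside 9.96% and 9.92% of all genes. Without the samples numbered 1 or 2 the paired fit called none of them, as it called 9 and 7 genes in all, and without those numbered 3 it called 20. These groups were chosen with the values known, so their counts are descriptions.

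The genes that report on T cell receptor signal strength had 7 paired calls higher of 13, beside 9.96% of all genes. Egr1, an immediate early transcription factor, went from 23.9, 33.4 and 3.78 FPKM in vehicle to 58.5, 81.4 and 18.2 FPKM in AMD3100 (paired log2 change 1.51, limma adjusted p = 0.0197). Nr4a1, the orphan nuclear receptor often used as a reporter of this signal, went from 15.6, 34.2 and 12.4 to 32.9, 63.7 and 26.9 FPKM (0.99, adjusted p = 0.0172). Nfatc1, a calcium-dependent factor, went from 34.2, 37.6 and 32.6 to 59.3, 67.8 and 52.2 FPKM without overlap (0.76, adjusted p = 0.0191), and Egr3 (1.33) and Egr2 (1.13) also rose. Every one of these genes was higher in all 3 pairs. The median of the group was 0.76, against 0.72 for the receptors and 0.00225 for all genes.

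**Figure D3:**
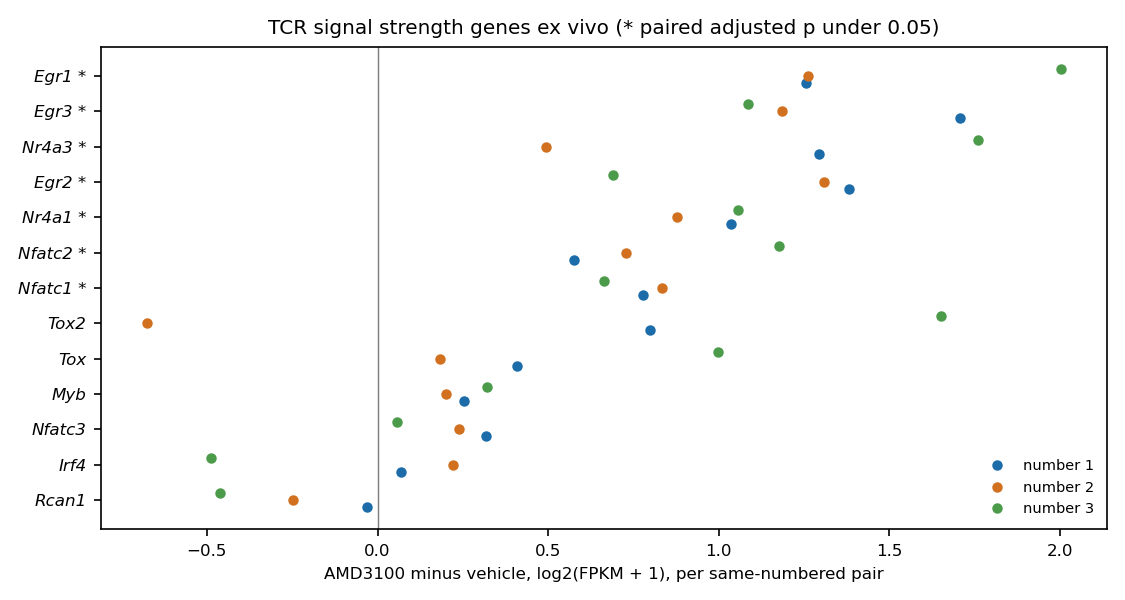
Difference of log2(FPKM + 1), AMD3100 minus vehicle, in each same-numbered pair for the 13 tested genes that report T cell receptor signal strength. Asterisks mark a paired limma adjusted p under 0.05, and Egr1, Egr3 and Egr2 lie to the right of 0 in all 3 pairs.

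Further downstream the calls were fewer and went both ways. Of 17 TRAF and NF-kB genes, Rel (1.10), Traf4 (0.56) and Rela (0.36) rose in the paired fit while Traf1 (-0.91) and Siva1 (-0.91), which binds the tail of CD27, fell. Over all genes that fit called 9.96% higher and 9.92% lower. Siva1 stood at 55.1, 48.6 and 50.1 FPKM in vehicle and at 31.3, 30.1 and 20.5 FPKM in AMD3100, without overlap. Of 13 kinases and adapters of the CD28 route, 4 were called higher in the paired fit, among them Pik3cd (0.47), Fyn (0.34) and Lcp2 (0.34), and none lower.

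Genes that restrain the receptors rose as well as fell in the paired fit. The ubiquitin ligases Cbl (0.91) and Cblb (0.75) rose, and the phosphatase Ptpn6, known as SHP-1, fell by 0.67 on the log2 scale. Trat1 (0.77), an adapter that binds the T cell receptor complex and CTLA-4, was listed with them and rose too, but it is neither a phosphatase nor a ubiquitin ligase. Cbl stood at 50.3, 62.4 and 75.6 FPKM in vehicle and at 103, 111 and 140 FPKM in AMD3100, so its groups did not overlap. In the remaining groups the paired fit called Cd274, the PD-1 ligand, of 5 ligands (0.70), and Cd96 (0.59) and 4632428N05Rik (0.78, VISTA) of 5 other inhibitory receptors. It also called Il2ra (0.72) and Slamf1 (0.60) of 11 costimulatory and SLAM receptors, and Tnfrsf1a (0.69), Tnfrsf1b (0.79) and Tnfrsf8 (-0.59) of 9 other TNF receptors. These calls stand beside 9.96% of all genes called higher and 9.92% called lower in that fit.

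In the primary tumours Cd69 and Icos were the receptors whose Cxcr4-/- values all lay above the Cxcr4+/+ values. No receptor was called (limma, Benjamini-Hochberg adjusted p from 0.986 upwards for all 10), beside 0.0372% of the 10741 genes tested, and 2 of the 10, Cd69 and Icos, had an unadjusted p under 0.05, as had 460 genes in all. These 2 were also the only receptors whose genotypes did not overlap, and 4.01% of all genes were higher in every knockout. The median change of the 10 receptors was 0.92, beside -0.0262 for all genes, and 9 of the 10 estimates were above 0, beside 47.7% of all genes. With 3 tumours per genotype an exact permutation test of a single value cannot give a p below 0.1.

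**Figure D4:**
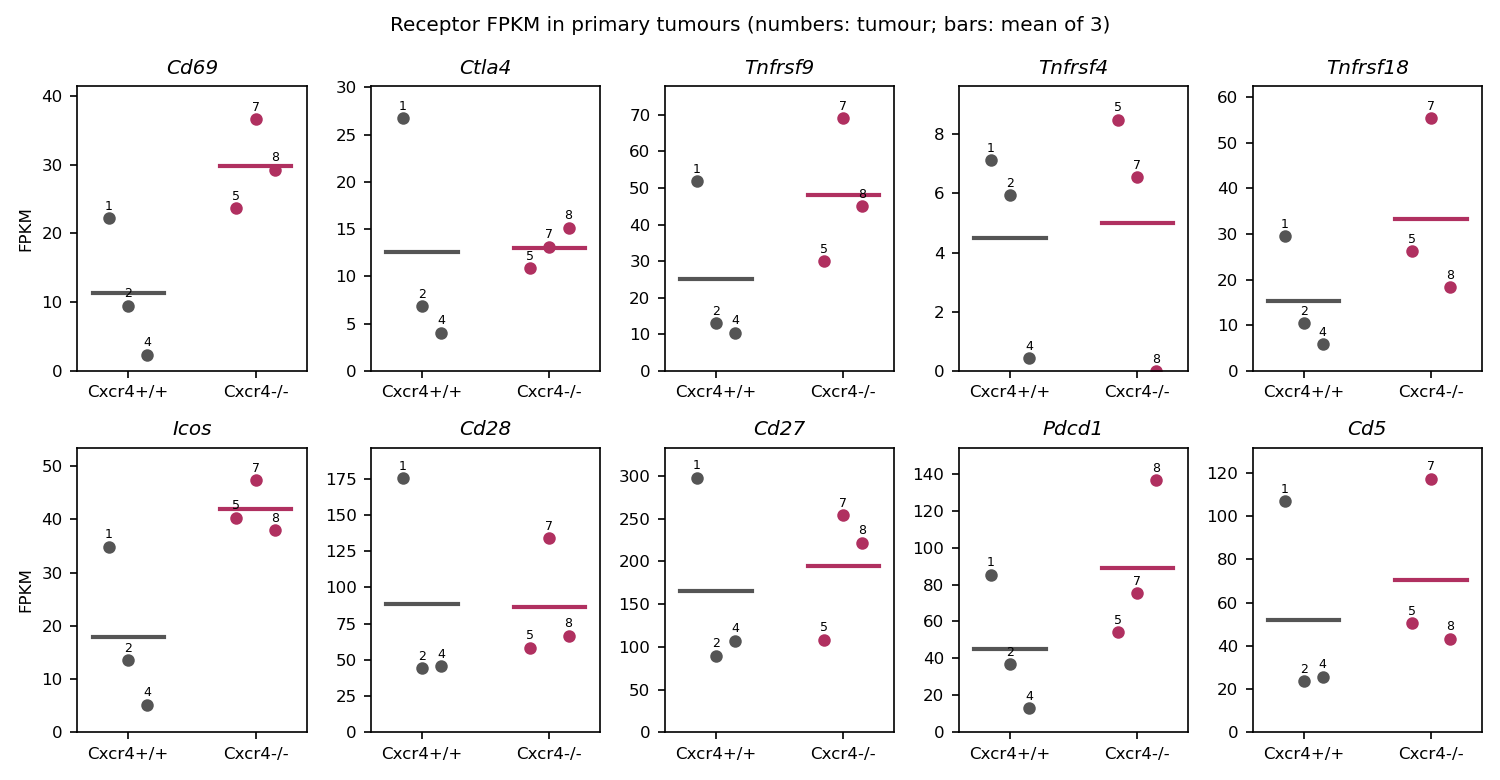
FPKM of each receptor (vertical axes, from 0) in 3 Cxcr4+/+ and 3 Cxcr4-/- primary tumours, each point labelled by its tumour number and each bar the mean of 3. Wild-type tumour 1 is the highest Cxcr4+/+ tumour for all 10 receptors, and the genotypes separate for Cd69 and Icos.

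Cd69 was at 22.2, 9.47 and 2.38 FPKM in wild-type tumours 1, 2 and 4 and at 23.7, 36.7 and 29.3 FPKM in knockout tumours 5, 7 and 8. Wild-type tumour 1 came within a small distance of the lowest knockout, while the other wild types lay well below. The means were 11.4 ± 10.0 and 29.9 ± 6.51 FPKM (SD, n = 3 each). On the log2 scale Cd69 differed by 1.70 (limma SE 0.67, adjusted p = 0.986), and by 0.96 without wild-type tumour 4.

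Icos stood at 34.9, 13.5 and 5.21 FPKM in the wild types and at 40.3, 47.4 and 38.0 FPKM in the knockouts. The knockout tumours were close to one another and the wild types spread over a wide range. On the log2 scale Icos differed by 1.53 (limma SE 0.60, adjusted p = 0.986), and by 0.90 without wild-type tumour 4.

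Tnfrsf9 and Tnfrsf18 had estimates above 1 with genotypes that overlapped through wild-type tumour 1. Tnfrsf9 stood at 51.9, 13.0 and 10.4 FPKM in the wild types and 30.1, 69.1 and 45.0 FPKM in the knockouts (log2 change 1.19, limma SE 0.62, adjusted p = 0.986). Tnfrsf18 stood at 29.5, 10.4 and 5.83 FPKM against 26.2, 55.3 and 18.3 FPKM (1.21, SE 0.63, adjusted p = 0.986). Both encode TNF receptors that are induced on activated T cells.

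Pdcd1 was also scattered, at 85.4, 37.1 and 13.2 FPKM in the wild types and 54.2, 75.3 and 137 FPKM in the knockouts (log2 change 1.21, limma SE 0.67, adjusted p = 0.986). Ctla4 differed by less, with 26.8, 6.88 and 4.06 FPKM against 10.9, 13.1 and 15.2 FPKM (0.43). Here the wild-type tumour 1 was the highest of all 6 tumours. Without wild-type tumour 4 the Ctla4 difference was -0.09.

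Cd28 stood at 175, 44.5 and 45.8 FPKM in the wild types and 58.5, 134 and 66.7 FPKM in the knockouts, a log2 change of 0.18 whose sign turned without wild-type tumour 2 or 4 or knockout tumour 7. Cd27 stood at 298, 89.9 and 107 FPKM against 109, 254 and 222 FPKM (0.36). Cd5 stood at 107, 23.5 and 25.8 FPKM against 50.4, 117 and 43.4 FPKM (0.64). For these receptors wild-type tumour 1 and knockout tumour 7 were high together and the genotypes overlapped.

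Tnfrsf4 was lowest of the 10 in the means of both genotypes, at 7.12, 5.94 and 0.425 FPKM in the wild types and 8.49 and 6.55 FPKM in knockout tumours 5 and 7, and it was listed at 0 in knockout tumour 8. Gapdh, which every cell uses, was also listed at 0 in 5 of the 6 tumours, so a listed 0 may be a failed estimate. The log2 change was -0.05, and it was 0.97 without knockout tumour 8 and 0.22 after quantile normalization.

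T cell genes differed in level between the tumours within a genotype. The mean of Cd3d, Cd3e and Cd3g, the CD3 chains of the T cell receptor complex, was 749, 222 and 248 FPKM in the wild types and 342, 699.8 and 619 FPKM in the knockouts, so wild-type tumour 1 and knockout tumour 7 were the highest of their genotypes. Red cell RNA also varied, with haemoglobin genes at 0.926% to 17.4% of a wild-type library and 1.78% to 13.8% of a knockout library. Expressed as a percent of that CD3 mean, a rescaling chosen after seeing the data, Cd69 was 2.96, 4.27 and 0.958 in the wild types and 6.93, 5.24 and 4.73 in the knockouts. On that scale Tnfrsf9 was 6.93, 5.85 and 4.21 against 8.80, 9.88 and 7.26, and Icos was 4.66, 6.10 and 2.10 against 11.8, 6.77 and 6.14. These 3 receptors were higher in every knockout than in every wild type, beside 1.42% of all genes.

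Cd27 on that scale was lower in every knockout, at 39.8, 40.5 and 43.2 percent of the CD3 mean in the wild types and 31.8, 36.3 and 35.8 percent in the knockouts, beside 7.68% of all genes. The genotypes overlapped for the other 6 receptors. On this scale the log2 changes of Cd27 (-0.22), Cd28 (-0.40) and Ctla4 (-0.15) were below 0, none of the 10 was called by limma, and the smallest adjusted p of the 10 was 0.798. The same rescaling ex vivo gave higher values in every AMD3100 sample than in every vehicle sample for 2 receptors, Cd69 and Tnfrsf9, beside 5.13% of all genes. It raised the unpaired Cd69 change to 1.96 and left Cd5 as the only estimate below 0, with Cd3g itself lower in AMD3100 (paired log2 change -0.46, limma adjusted p = 0.0251).

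**Figure D5:**
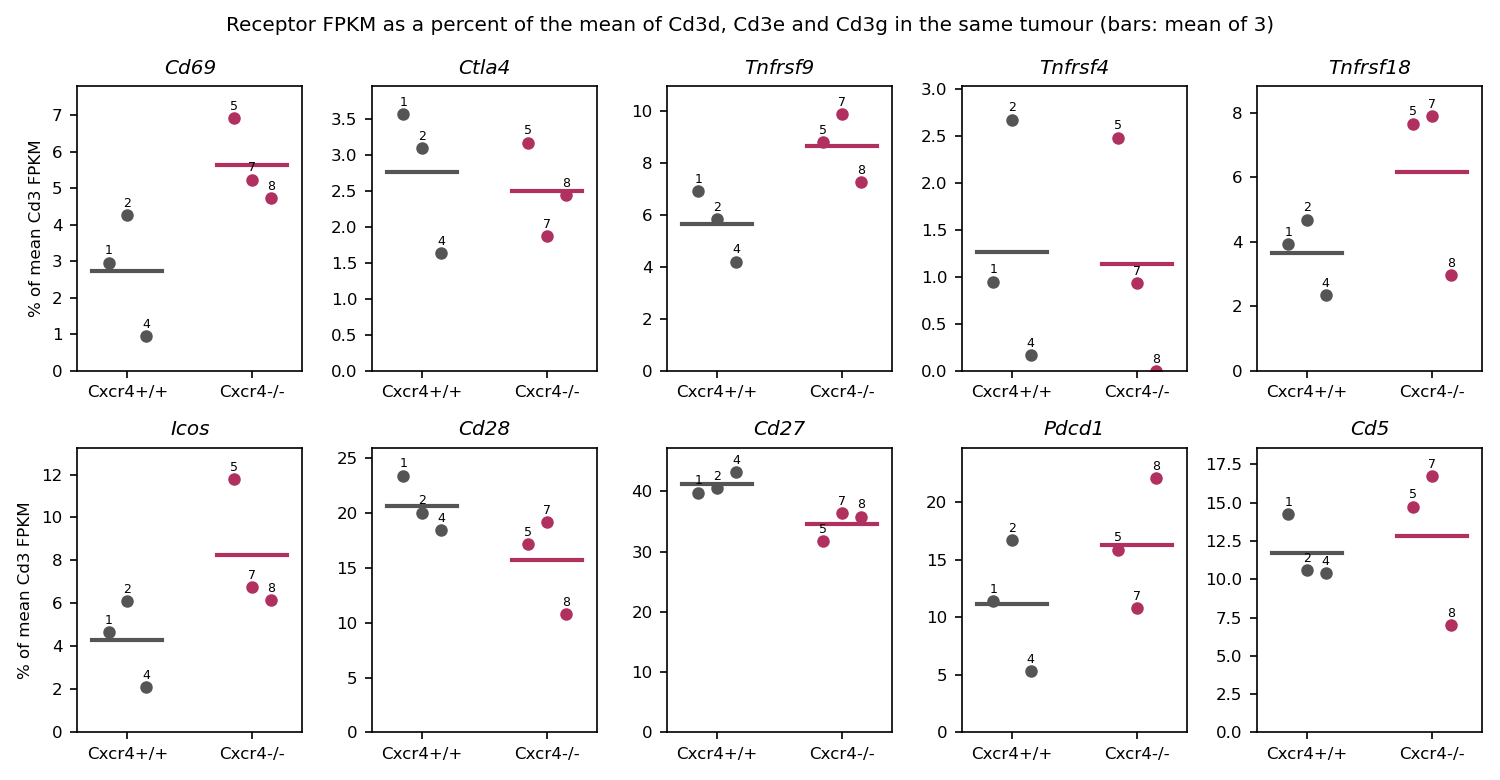
Each receptor as a percent of the mean FPKM of Cd3d, Cd3e and Cd3g in the same tumour (vertical axes, from 0), with tumour numbers beside the points and bars at the mean of 3. Cd69, Tnfrsf9 and Icos are higher in all 3 Cxcr4-/- tumours and Cd27 is lower in all 3.

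Markers of several kinds of other cells were present in the tumours of both genotypes. NK and cytotoxic markers summed to 556 to 2124 FPKM in the wild types and 770 to 2360 FPKM in the knockouts, all 9 had estimates above 0, none was called by limma, and Ncr1 was 1.18 to 19.1 FPKM against 7.36 to 15.4 FPKM. Regulatory T cell markers summed to 68.1 to 304 FPKM against 62.2 to 142 FPKM. Of the 5 tested, 4 had estimates above 0 and none was called by limma. Gpr83 was higher in every knockout (mean 0.665 FPKM in the wild types and 14.1 FPKM in the knockouts, log2 change 3.09), beside 4.01% of all genes. Il2ra was lower in every knockout (means 84.4 and 11.9 FPKM, log2 change -2.55). The share of all genes lower in every knockout is not given here, so nothing is read from that separation. Macrophage markers summed to 14.1 to 82.3 FPKM against 34.7 to 111 FPKM, and neutrophil markers reached 3082 FPKM in wild-type tumour 2 and 315 FPKM or less in the other tumours. Of the stromal markers, Cxcl12, Col1a2, Col3a1, Pdgfra, Dcn, Lum and Sparc were listed at 0 in every tumour. Vim had means of 107 FPKM in the wild types and 157 FPKM in the knockouts. For Pdgfrb the means were 7.32 and 1.07 FPKM, and for Col1a1 0 and 0.0948 FPKM. Their part in the receptor values was not tested.

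Of the 109 pathway genes, 99 reached the filter in the tumours, none was called by limma, beside 0.0372% of all genes, and 14 had an unadjusted p under 0.05, as had 460 of all 10741 genes. The median change was 0.44, beside -0.0262 for all genes. Klf2 stood at 116, 71.9 and 48.6 FPKM in the wild types and at 140, 302 and 274 FPKM in the knockouts, without overlap (log2 change 1.60, limma adjusted p = 0.986). Over all genes, 4.01% were higher in every knockout. S1pr1 stood at 81.1, 32.5 and 25.0 FPKM against 73.0, 213 and 98.4 FPKM (1.49), with overlap through wild-type tumour 1. Of the 14 genes of the signal strength group, 10 had estimates above 0, among them Egr3 (2.24), Nfatc2 (1.45), Nr4a3 (1.29), Nfatc1 (1.00), Egr1 (0.86) and Egr2 (mean 9.15 FPKM in the wild types and 22.6 FPKM in the knockouts), all with overlapping genotypes. Myb was the exception without overlap, lower in every knockout at a mean of 59.6 FPKM against 145 FPKM in the wild types (-1.23). The limma adjusted p of each of these 7 genes was 0.986. The share of all genes lower in every knockout, to set beside Myb, is not given here. Nr4a1 had an estimate near 0, with means of 61.9 FPKM in the wild types and 55.1 FPKM in the knockouts (log2 change 0.11, limma adjusted p = 0.998). Irf4 (-0.27), Tox2 (-0.14) and Nfatc3 (-0.13) were below 0, as Myb was. The genes outside the rule for named genes were chosen after their values were seen.

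The genes closest to each receptor in pattern were found over the 12 samples as the smallest root mean square difference in log2(FPKM + 1), each table centred on its own mean. For Cd69 these were Sema4a at 0.304, Maf at 0.355, Cd52 at 0.372, Fam129a at 0.448 and Zyx at 0.461, where a typical gene was at 1.16. For Icos the nearest were Tnfsf11 (0.527) and Fam20a (0.553), for Ctla4 Zfp36 (0.389) and Il10ra (0.474), and for Tnfrsf9 Ms4a4b (0.289) and Cd53 (0.326). For Tnfrsf18 they were Sesn3 (0.276) and Cnn2 (0.297), for Cd28 Smarca2 (0.181) and Hivep2 (0.203), and for Cd27 Suv420h1 (0.0963) and Plcg1 (0.117). For Pdcd1 they were Paqr7 (0.285) and Rab6b (0.312), for Cd5 Arhgap9 (0.229) and Slc28a2 (0.277), and for Tnfrsf4 1110006O24Rik (0.461) and Ggct (0.461). A gene that does not vary at all would lie at 0.49 from Cd27 and at 1.09 from Cd69.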

How the data were processed

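Per the labels' protocols, poly-A RNA of 12 mouse samples was sequenced as strand-specific libraries (dUTP method) with single reads of 50 bases. The authors deposited FPKM values in 2 tables of 6 samples. CASAVA, TopHat and the genome build mm9 are named in the submitters' processing notes. Which program and annotation gave the FPKM values, and whether it used strand, is not given in the sources used here. Because each table was made by itself, no level is compared between tables.

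FPKM values are not counts, so each comparison was fitted with limma 3.58.1 in R 4.3.3 on log2(FPKM + 1), over genes averaging 1 FPKM or more in the 6 samples (10245 ex vivo, 10741 in the tumours). The fit used a mean trend, two-sided tests, Benjamini-Hochberg adjustment over every gene kept, and an adjusted p under 0.05 as the call. It was checked on simulated data. The ex vivo groups share label numbers. Deviations from the group mean correlated within numbers ( 0.467, 0.579 and 0.619, above the limit of 0.1; other vehicle and AMD3100 samples -0.473 to 0.0455), so the numbers were taken as pairs, although the labels do not say what they mark. The fit without a block is the design chosen here, and the paired fit stands beside it. The tumours share no numbers.

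The receptors, pathway groups and marker lists were chosen with earlier results of these data known. Genes named are all 10 receptors, called members of each pathway group (at most the 5 with the smallest p, or else up to 3 by level), the 3 most abundant markers, Cxcr4, and the nearest genes in pattern, and not all of them are reported here. Foxp3 was not analysed here. Alternatives were other pseudocounts (0.1 and 0.5) and filters (0.1 FPKM, 5 FPKM, none), other scalings and variance models, leaving out each library and the block. The length correction of the paired fit, scaling to the CD3 genes and their paired forms were chosen after seeing the data.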

Additional observations from a re-analysis of the deposited data

How the results depend on the processing

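Without a block, none of the 10 receptors was called in 16 of 16 alternatives ex vivo and in 16 of 16 for the tumours, where 0 pathway genes were called as well. Ex vivo, 0 pathway genes were called in 15 of 16 alternatives and 1 with the filter of 5 FPKM. With the replicate block, 5 receptors and 30 pathway genes were called, also after median-of-ratios (5 and 30) or TMM scaling (5 and 30). The paired counts were 6 and 28 after quantile normalization, 5 and 25 after length correction, and 7 and 37 after scaling to the CD3 genes. Over all genes the block without these changes called 9.96% higher and 9.92% lower. The shares under the other settings are not given here, so nothing is read from these shifts in count. Leaving out libraries or pairs gave 0 to 5 receptors and 0 to 20 pathway genes ex vivo, and 0 of either in the tumours. Of 248 receptor changes under the alternatives ex vivo, 203 kept direction and side of the threshold, 38 passed it, all in fits with the block, and 7 reversed. Of 159 in the tumours, 148 kept both and 11 reversed. Ex vivo, leaving out a library moved Ctla4 between -0.15 and 2.19, Icos between -0.62 and 1.61, Cd28 between -0.050 and 0.72, Pdcd1 between -0.25 and 0.47, Tnfrsf9 between 0.78 and 2.15, Tnfrsf18 between 0.51 and 1.04 and Cd5 between -0.61 and -0.12. In the tumours it moved Cd69 between 0.96 and 2.35, Icos between 0.90 and 2.17, Tnfrsf4 between -0.85 and 0.97, Cd28 between -0.18 and 0.82 and Ctla4 between -0.086 and 1.14. Quantile normalization gave 0.22 for Tnfrsf4, and scaling to the CD3 genes gave -0.15 for Ctla4, -0.40 for Cd28 and -0.22 for Cd27. The causes were not tested. Tnfrsf4 fell under the filter of 5 FPKM in both tables, and under 1 FPKM without AMD3100 sample 2, so no value was obtained there. The depth in reads is unknown, which limits the precision of receptors near 1 FPKM.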

Other observations

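Of the activation genes outside the 10 receptors, Il2ra and Traf1 are given in both comparisons, and they were chosen after their values were seen. Il2ra, the alpha subunit of the interleukin-2 receptor, stood at 138, 27.8 and 87.0 FPKM in the Cxcr4+/+ tumours. In the Cxcr4-/- tumours Il2ra stood at 6.16, 16.6 and 13.0 FPKM, without overlap (log2 change -2.55, limma unadjusted p = 0.00451, adjusted p = 0.986). Ex vivo, the same gene stood at 344, 235 and 141 FPKM in vehicle and 474, 398 and 269 FPKM in AMD3100, and rose in the paired fit (log2 change 0.72, limma adjusted p = 0.0208). Traf1, an adapter of CD137, stood at 1.18, 4.19 and 2.77 FPKM in vehicle and 0.371, 1.57 and 0.814 FPKM in AMD3100, where it fell in the paired fit, and at 11.4, 5.05 and 2.80 FPKM in the wild-type and 12.1, 21.2 and 20.1 FPKM in the knockout tumours (log2 change 1.48, limma adjusted p = 0.986). The ex vivo and tumour values come from separate tables, and the difference between the comparisons was not tested.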
